A study of Mus musculus with 9 samples.

Results

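The conventional dendritic cell priming genes described here are 10 genes, Naaa, Plbd1, Sept3, Ckb, Tlr11, Irf8, Batf3, Xcr1, Clec9a and Wdfy4, out of 38215 genes in the count table. Naaa, Plbd1, Sept3, Ckb and Tlr11 were picked because they were lower with sgZrsr2 in these same libraries, so their difference between the groups is given as a description with no test. The other 5 are known genes of type 1 conventional dendritic cells and were added beside the picked ones. RNA was sequenced from bone marrow cells of 9 C57BL/6J mice, all treated with tamoxifen and all of a genotype with Jak2V617F, an activating mutation of the kinase Jak2 found in myeloproliferative neoplasms. The 5 mice titled EV, an abbreviation that the labels leave unexplained, have Jak2V617F alone. The 4 mice titled Zrsr2 have the genotype Jak2V617F-sgZrsr2, and the series' design text speaks of loss of Zrsr2, a splicing factor of the minor spliceosome. The sorted cells were negative for lineage markers and positive for Sca1, Kit, GFP and mCherry (LSK cells, the fraction of stem cells and multipotent progenitors), taken at the terminal time point. The promoter that drives the Jak2 allele, the age of the mice and the number of guides are not given in the sources used here.

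Dendritic cells take up antigen and present it to T cells. The type 1 lineage depends on the transcription factors Irf8 and Batf3, which act together on many of its genes, and arises from progenitors that carry the cytokine receptor Flt3. Some multipotent progenitors already transcribe genes of this lineage at a low level, which is called priming. ZRSR2 is recurrently mutated in blastic plasmacytoid dendritic cell neoplasm, a malignancy of another dendritic lineage.

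The libraries held 23238264 to 45585531 expected counts. The totals of sgZrsr2 mice 1 and 2 (23238264 and 25857723) were the lowest, and the next was 32961362 in EV mouse 5. Zrsr2 itself had levels of 50.6, 51.9, 62.2, 51.7 and 50.7 CPM (expected counts relative to the library total after TMM scaling) for EV mice 1 to 5 against 39.4, 44.4, 40 and 31.7 CPM for sgZrsr2 mice 1, 2, 3 and 5, so RNA of the targeted gene was still present (log2 fold change -0.46, SE 0.12; edgeR adjusted p = 0.714; two-sided exact permutation p = 0.0159). Kit was at 247 to 632 CPM and Ly6a, the gene of Sca1, at 14.8 to 49.3 CPM in the 9 libraries. The T cell gene Cd3e reached at most 0.0873 CPM. The sum of 7 T and natural killer cell markers, however, was 53.7 to 86.9 CPM in EV and 62.9 to 103 CPM in sgZrsr2 libraries. Most of this sum was Nkg7, with means of 57.9 CPM (EV) and 69.4 CPM (sgZrsr2). In 3 libraries, EV mouse 5 and sgZrsr2 mice 3 and 5, the early erythroid gene Car1 was at 25.4, 39.3 and 35.5 CPM, against at most 0.422 CPM in the other 6. Summed over 12 megakaryocyte and erythroid markers, the level ran from 137 to 344 CPM in EV and from 262 to 524 CPM in sgZrsr2 libraries, and over 8 neutrophil markers from 15.6 to 182 and from 24.1 to 211 CPM. The largest part of the megakaryocyte and erythroid sum was Itga2b, with means of 167 CPM (EV) and 245 CPM (sgZrsr2). Of 11 megakaryocyte and erythroid markers tested, 11 were higher with sgZrsr2 (median log2 fold change 1.46), and of 7 B cell markers tested, 7 were lower (median -1.05), with 0 past the adjusted threshold on either list. With 1 library left out, all megakaryocyte and erythroid markers still tested were higher. Their median ran from 0.83 (without sgZrsr2 mouse 3) to 2.56 (without EV mouse 5). Without the 3 libraries high in Car1, itself 1 of these markers, 5 of the 9 still tested were higher and 4 lower (median 0.32). The B cell count rests on few libraries. Without EV mouse 1, 3 of the 6 B cell markers still tested were higher and 3 lower (median 0.03), while the median was -1.61 without sgZrsr2 mouse 3. The summed level of 8 B cell markers was 20.2 to 64.6 CPM in EV and 17.1 to 36.2 CPM in sgZrsr2 libraries, and that of 11 monocyte and macrophage markers 265 to 471 and 255 to 362 CPM. None of the genes on these lists was at 0 in all libraries, and the part of these cells in the results that follow was not tested. In RNA of a whole sorted fraction, fewer cells that express a gene and less RNA per cell cannot be told apart.

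Across all 14944 genes tested, edgeR's quasi-likelihood test called 0 at a Benjamini-Hochberg adjusted p of 0.05 (0% of the genes), and 1024 (6.85%) had an unadjusted p under 0.05. The DESeq2 Wald test called 16 genes and limma-voom with sample quality weights 0. All 10 dendritic genes were among the genes tested. The filter asked for 0.291 CPM by library total in at least 4 libraries. Tlr11 reached that in 5 EV and 0 sgZrsr2 libraries and therefore passed only through the group in which it is high. Batf3 reached it in 5 EV and 3 sgZrsr2 libraries, and the other 8 genes in all 9.

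The 5 picked genes were lower in every sgZrsr2 library than in any EV library. Such a separation was found for 458 of the 14944 genes (3.06%), 197 in this direction (1.32%) and 261 in the other (1.75%), and nothing is read from the 5 of 5, since these genes were picked for it. Naaa encodes N-acylethanolamine acid amidase, a lysosomal enzyme that breaks down the lipid palmitoylethanolamide (ENSMUSG00000029413; chromosome 5, 92257659 to 92278170, minus strand, GRCm38). Its level was 20.2, 27.8, 16.4, 24.6 and 18.5 CPM for EV mice 1 to 5 against 9.71, 12.1, 11 and 11 CPM for sgZrsr2 mice 1, 2, 3 and 5. The sgZrsr2 libraries lay close together and their mean of 10.9 ± 0.97 CPM (SD, n = 4) was 50.9% of the EV mean of 21.5 ± 4.64 CPM (SD, n = 5), a log2 fold change of -0.97 (SE 0.18).

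Plbd1, a lysosomal protein of the phospholipase B family (ENSMUSG00000030214; chromosome 6, 136612070 to 136661928, minus strand), followed the same order of size. Its level was 13.5, 17.4, 12.8, 11 and 11.4 CPM for EV mice 1 to 5 against 6.59, 7.12, 7.71 and 6.12 CPM for the 4 sgZrsr2 libraries, with a log2 fold change of -0.94 (SE 0.18). The highest sgZrsr2 library, mouse 3, stood below the lowest EV library, mouse 4. Ckb, the brain-type creatine kinase that buffers ATP (ENSMUSG00000001270; chromosome 12, 111669355 to 111672338, minus strand), measured 8.58, 10.6, 7.51, 8.04 and 6.14 CPM in the EV and 3.38, 2.76, 4.79 and 3.78 CPM in the sgZrsr2 libraries. Its log2 fold change was -1.15 (SE 0.24). EV mouse 5 and sgZrsr2 mouse 3 came nearest to each other. The expected counts of Ckb were whole in only 1 of 9 libraries, so RSEM divided some of its reads with another gene, which was not identified here, and its level is uncertain.

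Sept3 and Tlr11 had the lowest levels of the 5 picked genes. Sept3 rested on 12 to 195 counts per library, and Tlr11, near the limit of detection, on 4 to 65. Sept3, a septin, one of a family of GTP-binding proteins that form filaments (ENSMUSG00000022456; chromosome 15, 82274935 to 82294442, plus strand), gave 2.45, 2.7, 3.34, 4.33 and 1.4 CPM in the libraries of EV mice 1 to 5. Those of sgZrsr2 mice 1, 2, 3 and 5 had only 0.579, 0.48, 0.535 and 1.03 CPM, and the log2 fold change of -2.10 (SE 0.40) stood beside that of Tlr11 as one of the 2 largest. Mouse 5 was the lowest of the EV group and the highest of the sgZrsr2 group, and these 2 libraries, both high in Car1, set the width of the gap. Tlr11 encodes an endosomal toll-like receptor that recognises profilin of Toxoplasma in type 1 dendritic cells (ENSMUSG00000051969; chromosome 14, 50360502 to 50363662, plus strand). It measured 0.921, 1.44, 0.499, 0.821 and 0.727 CPM in the EV and 0.267, 0.16, 0.243 and 0.223 CPM in the sgZrsr2 libraries. The sgZrsr2 values rest on 6, 4, 10 and 8 counts, so the log2 fold change of -1.97 (SE 0.43) is imprecise.

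The 5 added genes did not separate the groups: 0 of the 5 had groups that do not overlap and 0 passed the adjusted threshold. All 5 log2 fold changes were below 0, with a median of -0.15, beside a median of -0.01 over all genes tested. This median depended on single libraries: with 1 left out it ran from -0.73 (without sgZrsr2 mouse 3) to 0 (without sgZrsr2 mouse 1), and Batf3 and Clec9a were above 0 in 3 such fits each, up to 0.31 and 0.17. It was -1.24 with limma-voom and -1.05 without the 3 libraries high in Car1. Of the 5, Xcr1 had an unadjusted p under 0.05 in that direction, where 2.98% of all genes tested had one, beside 3.87% in the other direction.

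**Figure D1:**
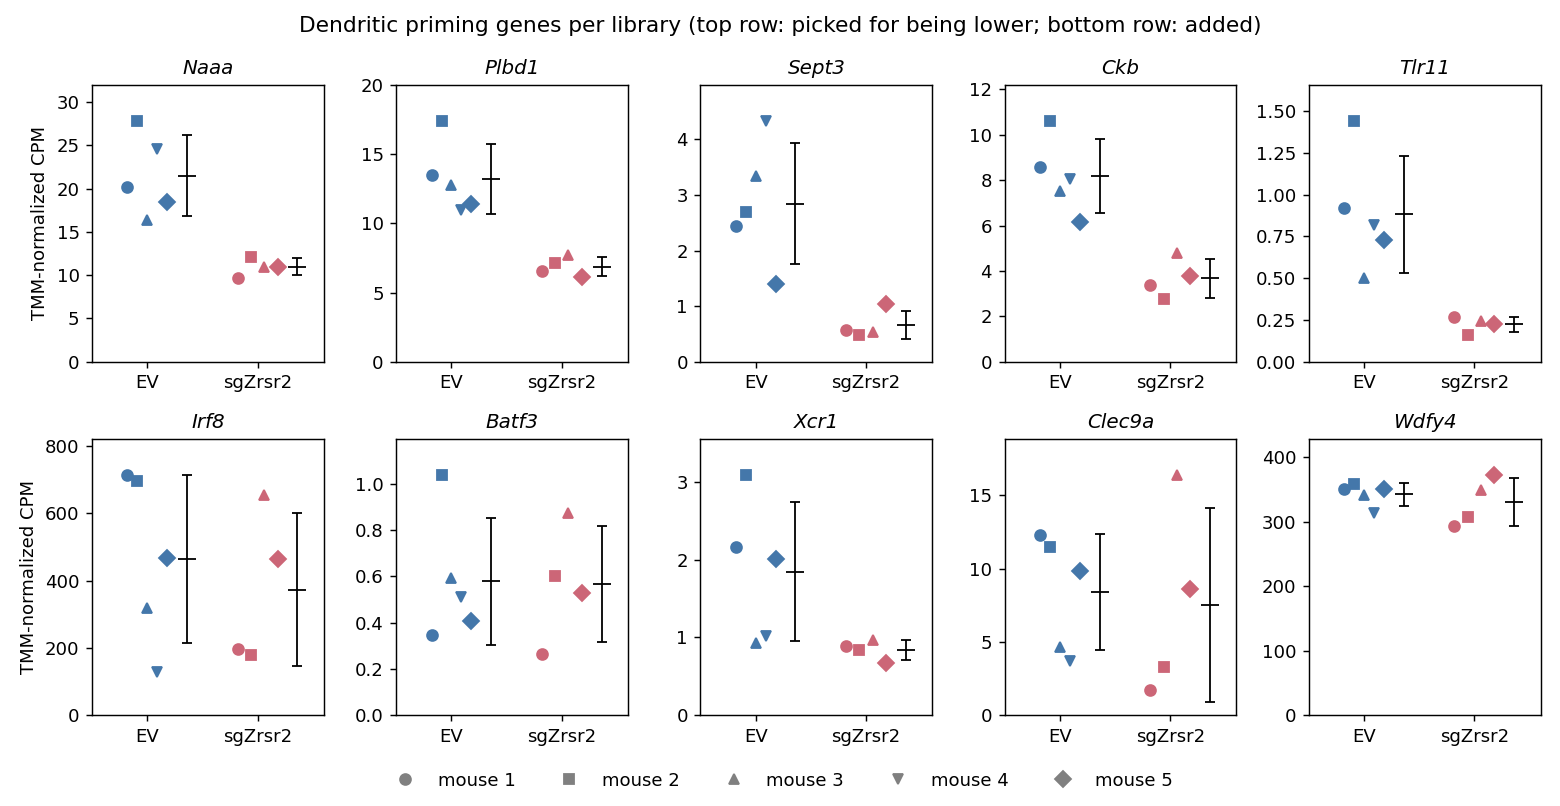
TMM-normalized CPM (y axis, starting at 0) of the 10 genes in each library, EV in blue and sgZrsr2 in red, with a symbol for each mouse number, and the mean and SD as black bars. In the top row every sgZrsr2 point lies under every EV point, the difference for which these genes were picked; in the bottom row the groups overlap, and Irf8 and Clec9a spread widely within both groups.

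Irf8, the factor that directs progenitors towards the type 1 dendritic and monocyte lineages (ENSMUSG00000041515; chromosome 8, 120736358 to 120756694, plus strand), had the highest mean of the 10 per length of transcript. Its level was 715, 696, 320, 129 and 466 CPM for EV mice 1 to 5 against 197, 180, 654 and 463 CPM for sgZrsr2 mice 1, 2, 3 and 5. The lowest and the highest library of the series were both EV, and sgZrsr2 mouse 3 was close to EV mice 1 and 2. The means of 465 ± 250 CPM (SD, n = 5) and 374 ± 227 CPM (SD, n = 4) did not differ beyond that spread (log2 fold change -0.32, SE 0.51; edgeR adjusted p = 0.881; two-sided exact permutation p = 0.603). With 1 library left out the log2 fold change of Irf8 ran from -0.73 (without sgZrsr2 mouse 3) to -0.09 (without sgZrsr2 mouse 2), and with limma-voom it was -1.24. Within the EV group Irf8 varied 5.56-fold, and its coefficient of variation of 53.7% was above that of 90.5% of the genes tested.

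Clec9a, a receptor for actin exposed on dead cells (ENSMUSG00000046080; chromosome 6, 129408862 to 129424764, plus strand), varied in the same way. Its level was 12.3, 11.5, 4.65, 3.68 and 9.86 CPM for EV mice 1 to 5 against 1.74, 3.32, 16.4 and 8.6 CPM for the sgZrsr2 libraries. Its extremes, mice 1 and 3, both belonged to the sgZrsr2 group, and the spread within groups exceeded the difference (log2 fold change -0.15, SE 0.59; edgeR adjusted p = 0.956; exact permutation p = 0.825). Clec9a shares 184 exonic bases with its neighbour Clec1b on the same strand in GENCODE M21, and its expected counts were whole in 1 of 9 libraries. Clec1b was at 0.111 to 1.19 CPM, highest in sgZrsr2 mouse 3, the library in which Clec9a was also highest.

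Wdfy4, which type 1 dendritic cells need to present antigen from cells they have engulfed (ENSMUSG00000051506; chromosome 14, 32959547 to 33185508, minus strand), was high and steady. It measured 350, 358, 342, 313 and 350 CPM in the EV and 293, 308, 349 and 373 CPM in the sgZrsr2 libraries. Its coefficient of variation in EV libraries, 5.06%, was lower than in all but 2.06% of the genes tested. The log2 fold change of -0.05 (SE 0.10) did not pass (edgeR adjusted p = 0.91; exact permutation p = 0.571).

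Xcr1, the receptor for the chemokine Xcl1 and the defining surface marker of type 1 dendritic cells (ENSMUSG00000060509; chromosome 9, 123852315 to 123862029, minus strand), came nearest to the picked genes. It measured 2.16, 3.09, 0.935, 1.02 and 2.01 CPM in the EV and 0.89, 0.84, 0.973 and 0.668 CPM in the sgZrsr2 libraries. All 4 sgZrsr2 libraries were lower than every EV library other than that of mouse 3, which sgZrsr2 mouse 3 exceeded, so the groups overlapped. Its log2 fold change of -1.13 (SE 0.41) had an unadjusted edgeR p of 0.0185, an adjusted p of 0.714 and an exact permutation p of 0.0317. The values rest on 20 to 140 counts. Without EV mouse 2, the highest library, the log2 fold change was -0.86 (edgeR adjusted p = 0.818).

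Batf3, the partner of Irf8 in the same lineage (ENSMUSG00000026630; chromosome 1, 191098414 to 191108943, plus strand), rested on 6 to 47 counts per library. It measured 0.346, 1.04, 0.592, 0.511 and 0.407 CPM in the EV and 0.267, 0.6, 0.876 and 0.529 CPM in the sgZrsr2 libraries. The groups overlapped throughout (log2 fold change -0.02, SE 0.46; edgeR adjusted p = 0.992; exact permutation p = 0.968).

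**Figure D2:**
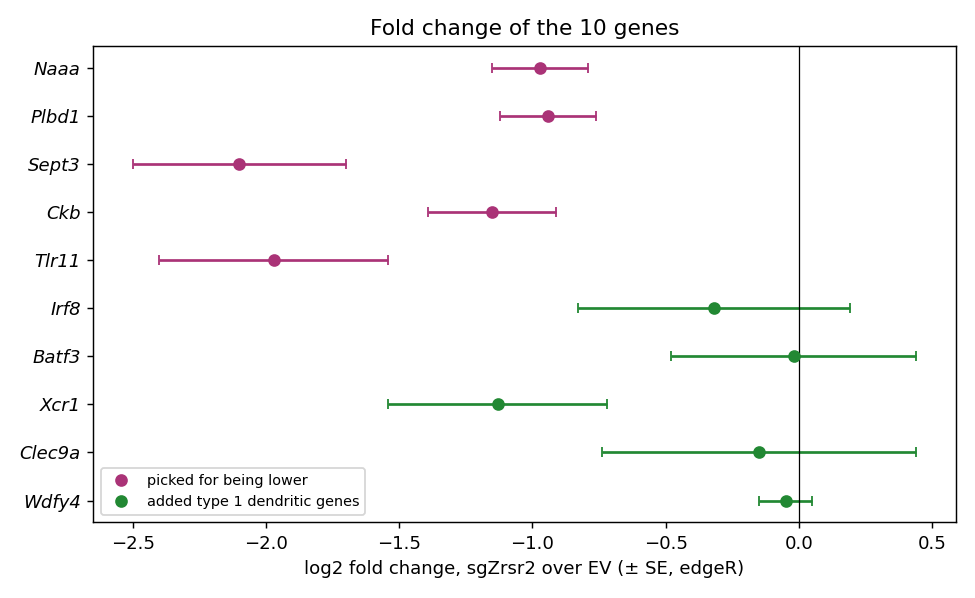
Log2 fold change of sgZrsr2 over EV (x axis) of the 10 genes, with bars of 1 standard error from edgeR; purple genes were picked for being lower and green genes were added. The picked genes run from -2.10 to -0.94, while the added genes other than Xcr1 lie between -0.32 and -0.02.

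Per length of transcript the 10 genes fell into 3 levels in the EV libraries. Irf8 and Wdfy4 led with 66 and 32.4 CPM per kilobase of exon, and since Irf8 ranged from 18.2 to 101 and Wdfy4 from 29.7 to 33.9, their order was not fixed. Naaa (5.78), Plbd1 (5.02), Ckb (2.83) and Clec9a (2.55) formed a middle level, in which Naaa and Plbd1 overlapped each other and Ckb and Clec9a overlapped each other. Sept3 (0.429), Xcr1 (0.414), Batf3 (0.362) and Tlr11 (0.269) were lowest and overlapped one another. The exon lengths are those of GENCODE M21 and not necessarily those of the annotation used for counting. Xcr1 and Clec9a, the surface receptors that mark mature type 1 dendritic cells, were thus less abundant per length than the regulator Irf8 in every EV library.

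The 10 genes did not share 1 order of libraries. The 5 libraries highest in Irf8 (EV mice 1, 2 and 5 and sgZrsr2 mice 3 and 5) were also the 5 highest in Clec9a and in Wdfy4, and 4 of them were among the 5 highest in Xcr1. For Wdfy4 this rests on a narrow gap, 349 CPM in sgZrsr2 mouse 3 against 342 CPM in EV mouse 3. Over all libraries Wdfy4 varied 1.27-fold and Irf8 5.56-fold. For comparison, 1741 of all genes tested (11.7%) had exactly the 5 libraries highest in Irf8 on top. These 5 include every library high in Car1 and neither sgZrsr2 mouse 1 nor mouse 2, the libraries with the lowest totals. The part of cell composition and depth in this order was not tested. After the group means were subtracted, log2 CPM of Clec9a had a Pearson r of 0.891 (Spearman rho 0.9) with Irf8 over the 9 libraries, and that of Wdfy4 0.826 (rho 0.833). For Naaa and Irf8 the r was -0.002 (rho -0.067), and Sept3 had an r of -0.274 with Irf8. The other picked genes had a positive r with Irf8: 0.565 for Ckb (rho 0.7), 0.546 for Plbd1 (rho 0.55) and 0.407 for Tlr11 (rho 0.483). Among the added genes the r was 0.629 for Xcr1 (rho 0.633) and 0.34 for Batf3 (rho 0.267). Of the other genes tested, 76.7%, 75.2% and 65.9% had a lower r with Irf8 than Ckb, Plbd1 and Tlr11 had. This share was 81.8% for Xcr1, 62.3% for Batf3, 46.9% for Naaa and 35.9% for Sept3. For Clec9a and Wdfy4 it was 98.1% and 95.4%. EV mouse 4 shows how Naaa and Sept3 differed from Irf8 in 1 library. It was lowest of all in Irf8 (129 CPM), highest of all in Sept3 (4.33 CPM) and second in Naaa (24.6 CPM). In Plbd1, however, EV mouse 4 was the lowest EV library (11 CPM). These coefficients describe 9 libraries that share their sort and library preparation, and they carry no test.

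**Figure D3:**
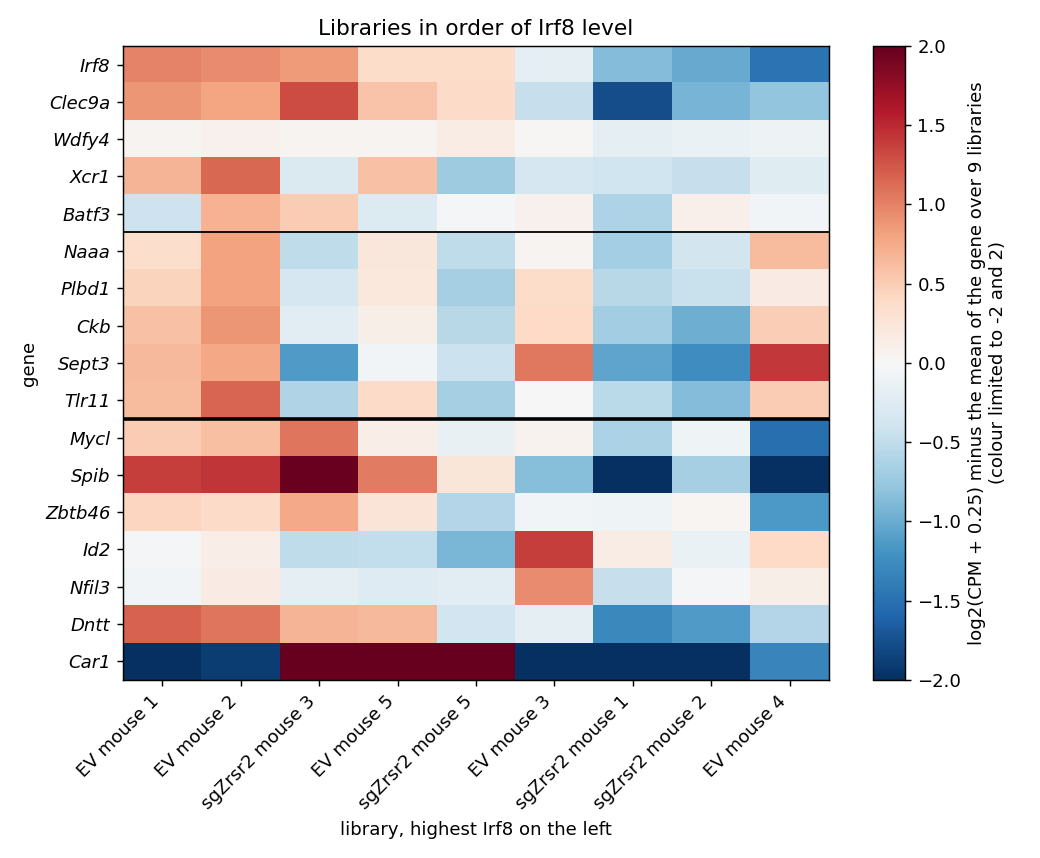
Heat map of log2(CPM + 0.25) minus the mean of each gene, with the 9 libraries ordered by Irf8 from the highest (EV mouse 1, 715 CPM) to the lowest (EV mouse 4, 129 CPM); genes above the first line were added, those between the lines were picked, and below the second line stand listed genes, of which Mycl, Spib and Dntt were chosen after their values were seen. Clec9a fades from left to right with Irf8, while Naaa, Plbd1, Ckb, Sept3 and Tlr11 are blue in the sgZrsr2 columns wherever these stand.

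The 3 genes most like Irf8 over the 9 libraries, by Pearson r of log2 CPM without the group means, were Rasa4 (r 0.989, rho 1), a Ras GTPase-activating protein, Kcng1 (r 0.988, rho 0.95), a potassium channel subunit, and Nrp1 (r 0.986, rho 0.933), a co-receptor for semaphorins and vascular growth factor. Nrp1 ran from 6.55 CPM in EV mouse 4 to 35 CPM in EV mouse 2. The 3 most like Naaa were Arl16 (r 0.945, rho 0.917), Cstf3 (r 0.912, rho 0.917), a cleavage factor of polyadenylation, and the predicted gene Gm6787 (r 0.897, rho 0.867), which was at most 0.36 CPM. None of the 10 dendritic genes was among these 6.

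Promoters were searched for sites of interferon regulatory factors, PU.1 and Batf proteins and for the TATA box, and no motif was present in all. Whether these factors act on the 10 genes was not tested. RefSeq windows on GRCm38.p6, from 250 bases before to 50 after the gene start, were at hand for 9 of the 10 genes, all but Sept3. Both strands were searched for 5 motifs. The ISRE, bound by interferon regulatory factors, was GAAA and GAAA with any 2 bases between, and the EICE, the composite site of Irf8 with PU.1, was GGAA and GAAA with any 2 bases between. The AP-1 core, bound by Batf proteins with Jun, was TGA and TCA with any 1 base between. The PU.1 site was GAGGAAGT and the TATA box TATAAA. ISRE and EICE letters can overlap each other and neither overlapped another match here. Over 32544 RefSeq promoter windows 3.45% held the ISRE, 2.73% the EICE, 7.79% the AP-1 core, 3.11% the PU.1 site and 13.6% the TATA box. Tlr11 was the only one of the 9 with an ISRE or PU.1 match, at -122 and -133 from the RefSeq gene start, and 0 had EICE or AP-1 letters in the window. TATAAA stood on the plus strand of the gene at -28 in Ckb and at -31 in Irf8, and on the opposite strand at -160 in Xcr1 and -226 in Clec9a. The RefSeq start of Tlr11 lies upstream of the start in the count table. The windows of Tlr11 (chr14:50357664-50357963, plus strand), Irf8 (chr8:120736108-120736407, plus strand) and Ckb (chr12:111672289-111672588, minus strand) are shown because they hold these matches, in capitals, at the places named; matching letters are not evidence of binding.
Tlr11: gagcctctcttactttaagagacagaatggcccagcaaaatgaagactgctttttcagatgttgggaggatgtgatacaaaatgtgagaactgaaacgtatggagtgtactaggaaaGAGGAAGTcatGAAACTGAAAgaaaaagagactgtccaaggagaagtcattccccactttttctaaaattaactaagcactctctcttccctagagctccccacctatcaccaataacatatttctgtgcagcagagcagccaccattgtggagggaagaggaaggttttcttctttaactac
Irf8: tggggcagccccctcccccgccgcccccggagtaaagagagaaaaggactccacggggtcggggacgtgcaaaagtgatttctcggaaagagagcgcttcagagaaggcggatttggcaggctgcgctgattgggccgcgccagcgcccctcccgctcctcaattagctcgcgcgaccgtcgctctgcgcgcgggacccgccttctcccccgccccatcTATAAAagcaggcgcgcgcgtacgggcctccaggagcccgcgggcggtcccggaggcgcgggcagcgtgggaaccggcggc
Ckb: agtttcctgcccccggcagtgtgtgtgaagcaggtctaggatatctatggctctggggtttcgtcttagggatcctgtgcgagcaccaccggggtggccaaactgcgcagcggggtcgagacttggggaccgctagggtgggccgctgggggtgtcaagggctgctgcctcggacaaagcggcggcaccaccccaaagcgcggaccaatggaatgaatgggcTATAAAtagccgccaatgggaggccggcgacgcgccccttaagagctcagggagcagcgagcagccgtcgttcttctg

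Listed receptors and factors of dendritic cell specification showed no call. Of 22 listed genes, all tested, 8 were higher and 14 lower with sgZrsr2 (median log2 fold change -0.11), 0 passed the adjusted threshold and 0 had an unadjusted p under 0.05. With 1 library left out the median ran from -0.29 (without sgZrsr2 mouse 3) to -0.05 (without sgZrsr2 mouse 1), and without the 3 libraries high in Car1 3 were higher and 19 lower (median -0.34). Flt3, the receptor that dendritic progenitors depend on, measured 501, 504, 463, 347 and 245 CPM in the EV and 345, 334, 363 and 227 CPM in the sgZrsr2 libraries (log2 fold change -0.38, SE 0.22; edgeR adjusted p = 0.722). Mouse 5 was the lowest of its group in both. Spi1, which encodes PU.1, was at 198 ± 35.1 CPM (SD, n = 5) and 176 ± 9.54 CPM (SD, n = 4). Id2 (20.4 ± 11.3 and 12.3 ± 3.84 CPM) and Nfil3 (33.4 ± 12.1 and 24.2 ± 2.91 CPM), both needed for the type 1 lineage, had log2 fold changes of -0.74 (SE 0.36) and -0.46 (SE 0.23), and EV mouse 3 was the highest library for each.

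Other factors of this list had groups that overlapped too. Zbtb46, a marker of committed conventional dendritic cells, had means of 3.48 ± 1.3 CPM (EV) and 3.58 ± 1.54 CPM (sgZrsr2), and Tcf4, the master factor of plasmacytoid cells, of 169 ± 31.5 and 158 ± 36.8 CPM. Zeb2, which acts against the type 1 fate, was at 170 ± 59.7 and 141 ± 64.4 CPM. Exactly the 5 libraries highest in Irf8 were also the highest for 4 of the 22 genes (18.2%, beside 11.7% of all genes tested), Zeb2, Bcl11a, Spib and Irf2.

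Genes of mature type 1 cells other than the 10 gave no call. Of 13 listed and tested, 11 were lower and 2 higher with sgZrsr2 (median log2 fold change -0.35, beside -0.01 over all genes), 0 passed the adjusted threshold, and 2 lower genes had an unadjusted p under 0.05, as did 2.98% of all genes tested in that direction. With 1 library left out the median ran from -0.59 (without sgZrsr2 mouse 1) to -0.25 (without sgZrsr2 mouse 3), without the 3 libraries high in Car1 it was -0.19, and without EV mouse 1 5 of the 12 genes still tested were higher and 7 lower. Exactly the 5 libraries highest in Irf8 were on top for 0 of these 13 genes. Gcsam, a signalling adaptor first described in germinal centres, measured 2.48, 3.01, 1.53, 2.24 and 1.77 CPM in the EV and 0.623, 0.28, 1.31 and 1.22 CPM in the sgZrsr2 libraries. It was the only gene of the list with groups that do not overlap, as 1.32% of all genes tested were in that direction (log2 fold change -1.34, SE 0.44; edgeR unadjusted p = 0.012, adjusted p = 0.714). Tlr3, the receptor for double-stranded RNA, measured 2.59, 3.69, 0.561, 1.91 and 2.15 CPM in the EV and 0.712, 0.92, 1.34 and 0.696 CPM in the sgZrsr2 libraries (log2 fold change -1.24, SE 0.48; unadjusted p = 0.0262, adjusted p = 0.714). EV mouse 3 was the lowest library of the series for Tlr3, so the groups overlapped.

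The other dendritic lineages gave no call in either direction. Of 9 tested plasmacytoid genes 5 were higher and 4 lower (median log2 fold change 0.01), and their marker Siglech had means of 18.3 ± 9.12 CPM (EV) and 15.8 ± 8.98 CPM (sgZrsr2). Of 9 tested type 2 genes 6 were higher and 3 lower (median 0.17). Of 9 listed genes of mature, migrating dendritic cells 5 were tested, and the log2 fold changes of these 5 were below 0 (median -0.8). EV mouse 3 was the highest of all for Cd86, Fscn1 (5.95 CPM), Cd83 (5.46 CPM) and Cd40 (1.31 CPM), and without it 4 genes were lower and 1 higher (median -0.35). Without sgZrsr2 mouse 1 the median was -0.43, and without sgZrsr2 mouse 2 it was -0.5. Among the 5 genes Cd86, a costimulatory ligand, had an unadjusted p of 0.0385 (edgeR adjusted p = 0.714) and was at 12.7 CPM in EV mouse 3 against 2.59 to 4.41 CPM in the other EV and 1.67 to 3.74 CPM in the sgZrsr2 libraries.

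**Figure D4:**
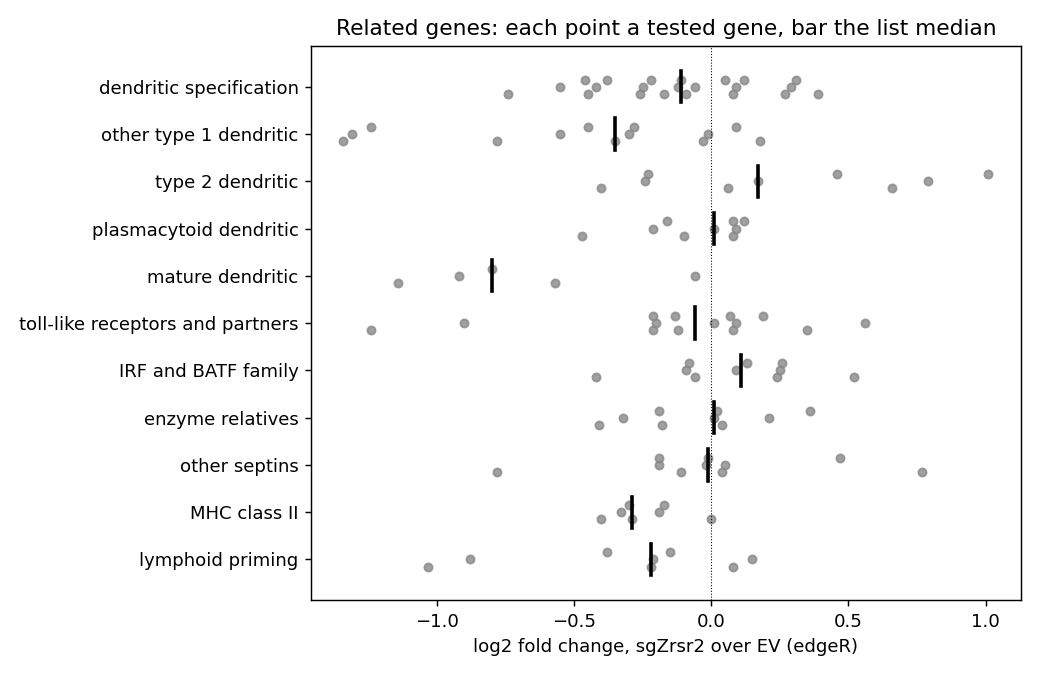
Log2 fold change of sgZrsr2 over EV (x axis) for every tested gene of 11 related lists, with a black bar at the median of each list. The median of the other type 1 dendritic genes is -0.35 and that of the plasmacytoid genes 0.01; no gene shown passed the adjusted threshold.

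Relatives of the picked genes, and of Irf8 and Batf3, were as often higher as lower or nearly so. Among 14 toll-like receptors and partners, 7 were higher and 7 lower (median log2 fold change -0.06), Tlr3 among them. Tlr12, which pairs with Tlr11 in sensing profilin, had means of 7.38 ± 3.35 CPM (EV) and 7.78 ± 3.38 CPM (sgZrsr2) (log2 fold change 0.08, SE 0.40), and Unc93b1, the chaperone that both need, of 238 ± 64.2 and 206 ± 35.6 CPM. Of 10 other septins tested, 4 were higher and 6 lower (median -0.01). Of 9 tested enzymes of fatty acid amide, phospholipase B and creatine metabolism, 5 were higher and 4 lower (median 0.01), among them Plbd2 at 71.8 ± 9.25 and 72.1 ± 3.96 CPM. Of the 10 other IRF and BATF genes 6 were higher and 4 lower (median 0.11), and 0 genes of these 4 lists had groups that do not overlap. Whether the difference of a picked gene and that of its relative differ was not tested.

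Genes shared with neighbouring programmes gave these values. Of 7 class II antigen presentation genes 6 were lower and 1 higher (median log2 fold change -0.29), with H2-Aa at 53 ± 13.4 and 42.2 ± 17.7 CPM and Cd74 at 142 ± 55.3 and 108 ± 20.8 CPM in EV and sgZrsr2 libraries, and 0 of the 7 had an unadjusted p under 0.05. With 1 library left out the median ran from -0.52 (without sgZrsr2 mouse 5) to -0.2 (without EV mouse 5 or sgZrsr2 mouse 1). Of 8 lymphoid priming genes, 5 (62.5%) had exactly the 5 libraries highest in Irf8 on top, Il7r, Rag1, Rag2, Ccr9 and Cd27, beside 11.7% of all genes tested. The same held for 3 of 9 type 2 genes (33.3%), 2 of 9 plasmacytoid genes (22.2%), 1 of 5 mature dendritic genes, 2 of 14 toll-like receptor genes (14.3%), 1 of 7 class II genes (14.3%) and 1 of 10 IRF and BATF genes. Summed over the 8 lymphoid priming genes the level was highest in EV mice 1 and 2 (978 and 965 CPM) and sgZrsr2 mouse 3 (820 CPM), the 3 libraries highest in Irf8. It was lowest in EV mouse 4 and sgZrsr2 mouse 1 (407 and 467 CPM).

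Without the 3 libraries with high Car1, leaving EV mice 1 to 4 and sgZrsr2 mice 1 and 2, 3 of the 5 added genes, Xcr1, Clec9a and Wdfy4, were lower in both sgZrsr2 libraries than in any EV library, in a comparison in which 10.7% of all 15323 genes tested were. The 5 picked genes were too, which says nothing further since they were picked for it. The log2 fold change of Naaa was then -1.02 and that of Plbd1 -0.99, while that of Clec9a went from -0.15 to -1.65 and that of Irf8 from -0.32 to -1.29. Irf8 and Batf3 still overlapped between the groups. The sgZrsr2 libraries left out, mice 3 and 5, were the highest of their group in Clec9a, Wdfy4 and Irf8. Leaving them out therefore lowers the sgZrsr2 group for these genes by construction. The gaps were also narrow. The lowest EV and the highest sgZrsr2 library were at 307 and 302 CPM for Wdfy4, 0.92 and 0.869 CPM for Xcr1, and 3.61 and 3.25 CPM for Clec9a. The 2 sgZrsr2 libraries left also had the lowest totals of the series. They had the fewest genes with a count, 16188 and 16832, against at least 18380 in the others. In these libraries Xcr1 rested on 20 and 21 counts and Clec9a on 39 and 83. The part of depth in this comparison was not tested. With 2 sgZrsr2 libraries left, 0 genes passed the adjusted threshold.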

How the data were processed

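The authors deposited 1 table of unnormalized expected counts, with a row for each Ensembl gene and a column for each library. Per the submitters' processing notes, cutadapt 1.11 and RSEM 1.2.30 were used on GRCm38; the aligner, annotation and strandedness are not given in the sources used here. Libraries were made from 5 ng of RNA by polyA selection and PCR, per the labels' protocols, which can add variation between libraries. RSEM divides reads that match several genes, so expected counts need not be whole.

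Counts were rounded, filtered with filterByExpr (minimum count 10, minimum total 15; 14944 of 38215 genes and 99.93% of the counts kept), scaled with TMM and compared with edgeR 4.0.16 (estimateDisp, glmQLFit, glmQLFTest; R 4.3.3), with p-values adjusted by Benjamini-Hochberg across the genes tested. The SE of a log2 fold change is its size over the square root of F. CPM use TMM factors of 0.894 to 1.07, and SDs are over libraries. For single values a two-sided exact permutation test over the 126 splits was used, whose smallest p is 0.0159. Log2 CPM for likeness used a prior count of 2. Nothing in the labels says how the mice of a group are related, so p-values measure the spread between these libraries.

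The members, lists and tests were chosen with earlier results of these data known. Of the lists, 6 symbols were matched by Ensembl identifier to older symbols in the table. The rule for named genes took the 10 members, Zrsr2 and 13 genes fixed from the lists, list genes of dendritic, receptor, factor, enzyme and septin lists that did not overlap or had an unadjusted p under 0.05, and the 3 genes most like Naaa and Irf8; other genes were named after their values were seen. The scripts were tested on simulated data. Alternatives were RLE and upper-quartile factors, 2 other filters, DESeq2 1.42.0, limma-voom (limma 3.58.1), a replicate block, sgZrsr2 mice 1 and 2 averaged, and leaving out libraries.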

Additional observations from a re-analysis of the deposited data

How the results depend on the processing

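The log2 fold changes of Naaa, Plbd1, Sept3, Ckb, Tlr11, Irf8, Xcr1 and Wdfy4 were never above 0 under the alternatives run, while those of Batf3 and Clec9a turned. With sgZrsr2 mice 1 and 2 averaged they were 0.07 for Batf3 and 0.13 for Clec9a. Leaving out 1 library at a time, Batf3 ran from -0.31 to 0.31 and was above 0 without EV mouse 2 and without sgZrsr2 mice 1 or 5. Clec9a ran from -0.87 to 0.17 and was above 0 without EV mouse 1 and without sgZrsr2 mice 1 or 2. The median log2 fold change of the 5 added genes was -0.15, -1.24 with limma-voom and sample quality weights, -1.05 without the 3 libraries high in Car1, and between -0.73 (without sgZrsr2 mouse 3) and 0 (without sgZrsr2 mouse 1) with 1 library left out. It moved by over 1.5 times without 6 of the 9 libraries, in turn: EV mice 2 (-0.03), 3 (-0.31) and 4 (-0.34) and sgZrsr2 mice 1, 2 (-0.04) and 3. Each of these shifts was smaller than the spread between mice of the median gene-centred log2 CPM of the 5 added genes (SD 0.599). Irf8 ran from -0.73 to -0.09 with 1 library left out and was -1.24 with limma-voom. Tlr11 had a larger change than Sept3 with limma-voom (-2.31 against -2.04), without EV mouse 3 (-2.12 against -2.05) and without EV mouse 4 (-1.99 against -1.9). Among marker and related lists, refitted without libraries after the values were seen, the median of the B cell markers turned from -1.05 to 0.03 without EV mouse 1. Xcr1 ran from -1.53 (limma-voom) to -0.86 (without EV mouse 2), with adjusted p from 0.178 to 1. The number of members with groups that do not overlap was 5, 4 where at least 1 CPM in at least 4 libraries was asked, 8 without the 3 libraries high in Car1, and 5 to 6 with 1 library left out, the 6 arising without EV mouse 3 or without sgZrsr2 mouse 3. Limma-voom and the block leave CPM as they are and give no such number. Genes past the adjusted threshold numbered 0, 16 with DESeq2, 1 with sgZrsr2 mice 1 and 2 averaged, and 0 in each fit that left out 1 library; the cause was not tested. Same-numbered deviations from the group means correlated at -0.227, -0.0904, -0.404 and 0.369 for mice 1, 2, 3 and 5. Of 4 sgZrsr2 libraries, 1 correlated best with its own number. The labels do not say whether mouse numbers pair the samples, and these correlations cannot settle it. With the mouse number as a replicate block 0 genes passed and the median of the added genes was -0.71. Depth limits Tlr11 and Batf3, with as few as 4 and 6 counts.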
